A study of Mus musculus with 78 samples.

Results

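The genes described here are the 3 D cyclins and 5 inhibitors of cyclin-dependent kinases (CDKs), namely Ccnd1, Ccnd2, Ccnd3, Cdkn1a, Cdkn1b, Cdkn2a, Cdkn2b and Cdkn2c. They were chosen by name, as the proteins that start and stop the G1 phase of the cell cycle. No rule on measured values was used, but earlier results of these data were known. They are 8 of the 53843 gene records on the autosomes and chromosome X, of which 21755 are protein-coding. Each was looked up in the 72 deposited ChIP-seq peak lists of C2C12 myotubes, first within 3 kb of the transcription start site (TSS, the 5′ end of the gene record in mm10) and then in the rest of the gene.

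D cyclins bind and activate CDK4 and CDK6, which phosphorylate the retinoblastoma protein and let a cell leave G1. The Ink4 inhibitors (products of Cdkn2a, Cdkn2b and Cdkn2c) bind these kinases directly, whereas the Cip/Kip inhibitors (p21 from Cdkn1a, p27 from Cdkn1b) bind cyclin-CDK complexes. Muscle cells must leave the cell cycle to become myotubes, and p21 in particular is known to be induced in that step. Polycomb repressive complex 2 (PRC2) contains SUZ12 and a methyltransferase, EZH1 or EZH2, and places H3K27me3, a histone mark of repressed genes. Cdkn2a and Cdkn2b are a textbook target of Polycomb repression in dividing mouse fibroblasts.

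C2C12 is a mouse myoblast line whose cells fuse into myotubes. Myotubes were synchronized with a shock of horse serum and collected at 12, 16, 20, 24, 28 and 32 h, with 3 biological replicates of each of 4 profiles. For Bio-EZH1, cells depleted of Ezh1 by a short hairpin and carrying BirA received Avi-tagged EZH1α, so that the biotinylated protein was pulled down with streptavidin; SUZ12 chromatin came from the same modified cells. H3K27me3 was profiled in C2C12 myotubes, and HA-EZH1 is an HA-tagged EZH1α whose labels name C2C12 but neither an antibody nor a modified line. The control with BirA alone was not analysed here. The SUZ12 lists have file names that could also stand for streptavidin, and the sample labels were followed.

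A library's list held 8539 to 19827 peaks for Bio-EZH1, 21419 to 40379 for SUZ12, 45120 to 70796 for H3K27me3 and 2347 to 16365 for HA-EZH1. The lists hold no read counts, so the depth is unknown, and a missing peak means only that none was called. Some libraries stood apart. The H3K27me3 lists of 12 h were the longest, with 63750 to 70796 peaks against 45120 to 50366 at the later times. In SUZ12, the highest fold in a list was 117 to 147 at 28 h, against 39.6 to 77.3 at 16, 20, 24 and 32 h. At 12 h it was 66.2 to 69.9, within the range of those other times. Many genes nevertheless varied in SUZ12 only through the libraries of 12 and 28 h, as given below with Ccnd1. As a check of the cells, 0 of 6 muscle genes (Myod1, Myog, Mef2c, Des, Ttn and Actn2) and 6 of 6 regulators of other lineages (Neurog1, Sox1, Tal1, Gata1, Foxa2 and Cebpa) were bound by H3K27me3. Binding at a time point meant that each of the 3 replicates had a peak with q under 0.01 within 3 kb of the TSS, with at least 1 bp in common.

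Ccnd1 and Ccnd2 were the members that carried PRC2 and its mark. Both had a promoter peak in 18 of 18 libraries of Bio-EZH1, 18 of 18 of SUZ12 and 18 of 18 of H3K27me3, and both were bound at all 6 time points in each of these profiles. Ccnd3 and the 5 inhibitors had a promoter peak in 0 of the 54 libraries of the same 3 profiles. Among all gene records, 7.46% were bound at 1 or more time points by Bio-EZH1, 10.4% by SUZ12 and 19.6% by H3K27me3. Among protein-coding genes, a promoter peak in all 18 libraries was found for 7.39% in Bio-EZH1, 5.78% in SUZ12 and 14.6% in H3K27me3, and in 0 of 18 for 75.1%, 75.8% and 63.1%. Binding at all 6 time points, as for Ccnd1 and Ccnd2, was found for 6.95% in Bio-EZH1, 4.48% in SUZ12, 9.95% in H3K27me3 and 3.28% in all 3. HA-EZH1 differed, with a promoter peak at Ccnd2 in 7 of 18 libraries, at Ccnd3 in 2 and at Ccnd1 in 0, and 5.59% of all gene records were bound by it. No test was run on these counts.

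**Figure D1:**
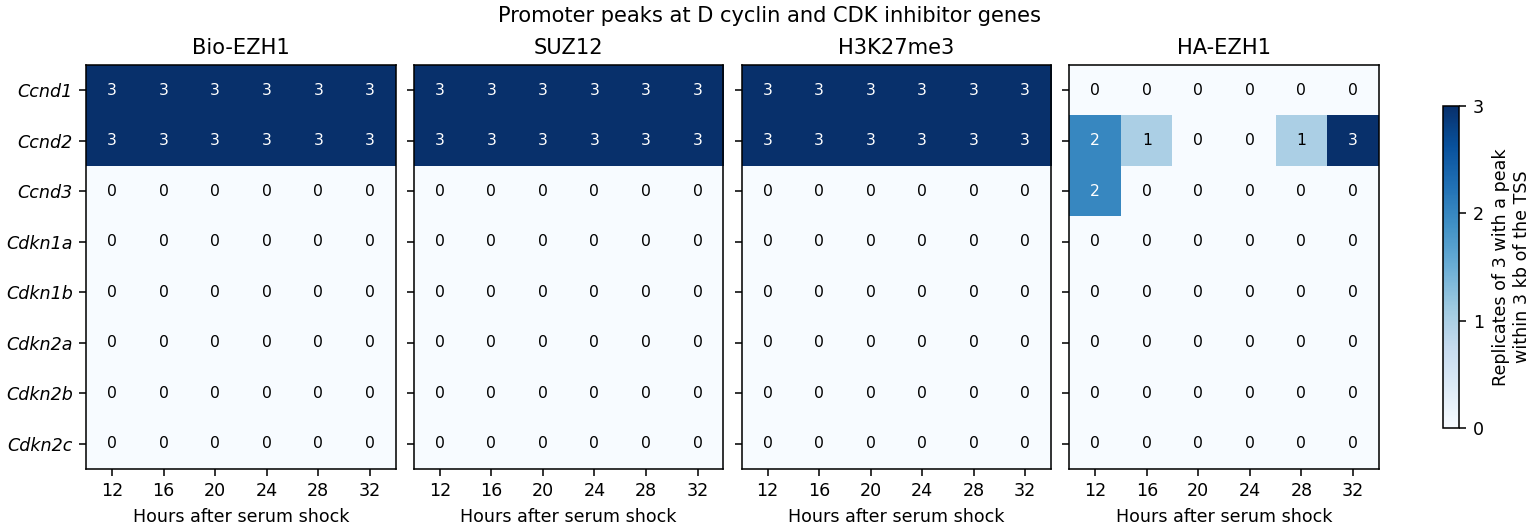
Number of replicates, of 3, with a deposited peak within 3 kb of the TSS of each of the 8 genes (rows) at each time after serum shock (columns, hours), for the 4 profiles. Ccnd1 and Ccnd2 show 3 of 3 at every time in Bio-EZH1, SUZ12 and H3K27me3, and the 5 CDK inhibitors show 0 throughout.

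Ccnd1 (ENSMUSG00000070348.5, chromosome 7, 144929931 to 144939925 in mm10, minus strand) encodes cyclin D1, the D cyclin that growth factors induce. A lone peak lay over its promoter and the start of the gene, with nearly the same borders in every Bio-EZH1 library. At the median it began at -3368 bp from the TSS, that is upstream of it (SD 170 bp, n = 18), and ended 2181 bp downstream (SD 48.1 bp). Its median width was 5532 bp in Bio-EZH1, 5032 bp in SUZ12 and 5619 bp in H3K27me3. It covered 84.9% to 88.7% of the 6 kb window in Bio-EZH1, 77.6% to 87.6% in SUZ12 and 68.5% to 96.7% in H3K27me3. No peak of any profile lay in the rest of the gene.

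**Figure D2:**
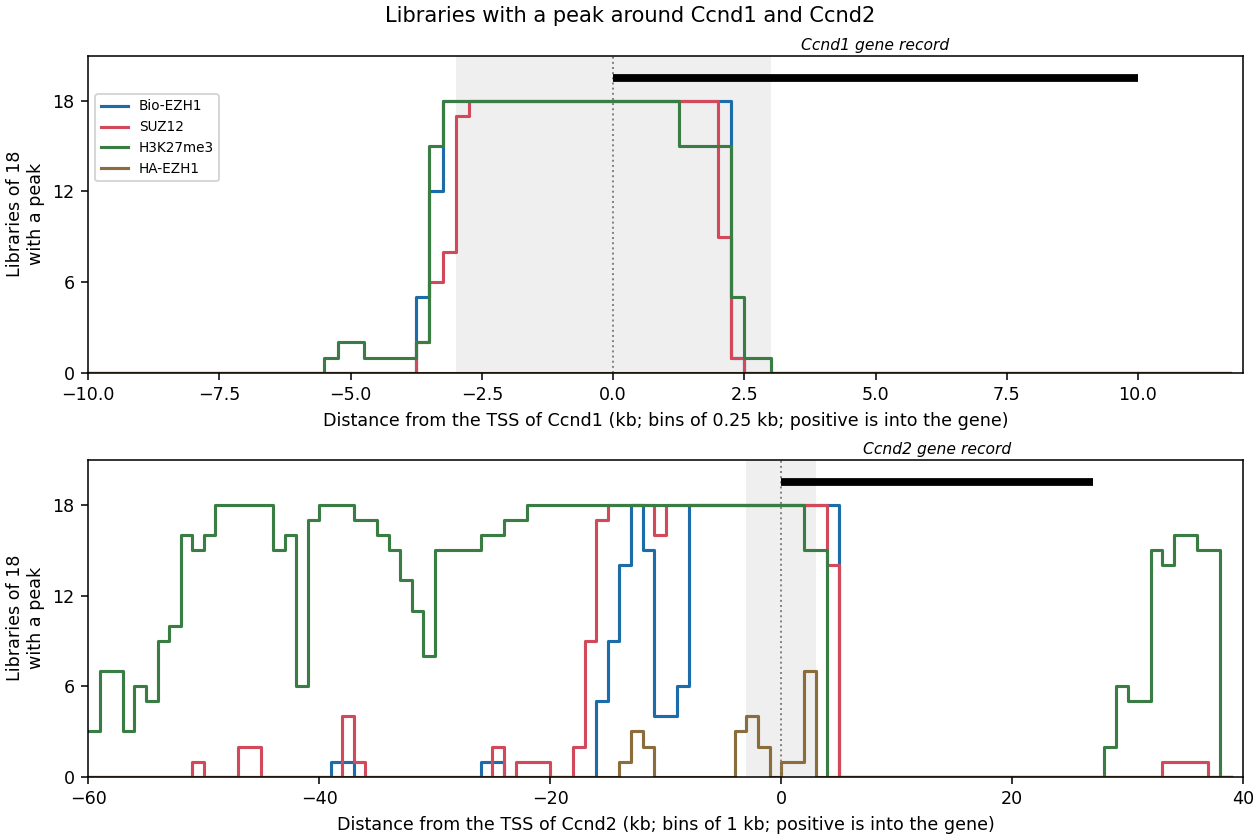
Libraries of 18 with a peak (y axis) by distance from the TSS in kb (x axis; bins of 0.25 kb for Ccnd1 and 1 kb for Ccnd2), 1 line per profile; the grey band is the 3 kb on either side of the TSS and the black bar the gene record. At Ccnd1 the lines of Bio-EZH1, SUZ12 and H3K27me3 rise and fall nearly together around the TSS, and at Ccnd2 the H3K27me3 line runs upstream far beyond the PRC2 peak.

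In Bio-EZH1, the fold of the Ccnd1 peak over the background modelled by the peak caller moved with time. It was 11.7, 12.6 and 12.5 at 12 h, 17.8, 14.5 and 16.2 at 16 h, and 10.7, 10.6 and 11.5 at 20 h. It was 16.4, 16.4 and 19.02 at 24 h, 10.7, 12.3 and 5.96 at 28 h, and 21.4, 17.3 and 19.4 at 32 h. The libraries of 16, 24 and 32 h were all above those of 12, 20 and 28 h. The lists differed too: those of 24 and 32 h held 15046 to 19827 peaks, against 8539 to 13990 at the other times, and the highest fold in a list was 58.1 to 64.6 at 20 h, against 81.9 to 121 at the other times. Their part in the Ccnd1 values was not tested. The lowest value, in replicate 3 of 28 h, stood at the 86.6th percentile of its list (the percent of the list's other peaks with an equal or lower fold), and the others were between the 91.9th and 97.5th. On the log2 scale the time points differed (limma moderated F test, Benjamini-Hochberg adjusted p = 0.00303), in a setting where 57.4% of the 5465 genes tested passed. The percentile passed as well (adjusted p = 0.0294, where 49.4% passed), and the covered share, for which 52.9% of genes passed, did not (adjusted p = 0.985, limma).

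SUZ12 at Ccnd1 followed another course. The folds were 12.2, 11.2 and 12.2 at 12 h, 5.59, 5.18 and 5.81 at 16 h, and 6.08, 5.17 and 4.02 at 20 h. They were 6.48, 6.20 and 6.38 at 24 h, 14.1, 16.2 and 18.1 at 28 h, and 7.26, 7.18 and 6.04 at 32 h. The 6 libraries of 12 and 28 h were all above the 12 libraries of the other times, and they also had the wider peaks, at 5484 to 5894 bp against 4654 to 5124 bp. The covered share differed between the time points (adjusted p = 0.0213, limma), as for 59.7% of the 7620 genes tested. Without the libraries of 12 h it did not pass (adjusted p = 0.061, where 60.3% of genes passed), nor without those of 12 and 28 h (adjusted p = 0.781), and without replicate 2 or 3 adjusted p was 0.282 and 0.116. The log2 fold differed with all libraries (adjusted p = 2.57e-07, limma, where 62.4% of genes passed) and without those of 12 h (adjusted p = 3.45e-06, where 62.2% passed). Without those of 12 and 28 h it did not pass (adjusted p = 0.194, where 38.5% passed). The percentile of the peak in its list, 97.6 to 97.9 at 12 and 28 h and 76.5 to 98.4 at the other times, did not pass either (adjusted p = 0.0781, limma, where 51.9% passed). Many other genes varied through the same times. The filter of a SUZ12 promoter peak in at least 3 libraries left 7735 genes. Of these, 902 had the same log2 fold in all libraries of 16, 20, 24 and 32 h. When the 12 h libraries alone were left out, 2 genes did not vary. The part of whole lists, in folds or in peaks called, in the Ccnd1 differences was not tested.

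H3K27me3 at Ccnd1 was low in fold at 12 h and at the top of the lists by fold afterwards. The folds were 2.38, 2.53 and 2.39 at 12 h, where 12593 or more peaks of each list were stronger. They were 15.3, 16.2 and 16.4 at 16 h, 16.5, 16.8 and 16.1 at 20 h, and 12.7, 13.7 and 12.4 at 24 h. They were 16.0, 14.8 and 16.3 at 28 h, and 18.3, 18.6 and 18.1 at 32 h. From 16 to 32 h the Ccnd1 peak had the highest fold of its whole list in 10 of 15 libraries and the next highest in the other 5, where the peak over Hes2, a gene for a bHLH repressor, stood above it. The peak also reached 1110 to 1245 bp into the gene at 12 h, against 2149 to 2799 bp at 16 to 32 h, and covered 68.5% to 70.8% of the window against 85.8% to 96.7%. For a broad peak the deposited fold is a mean over the whole peak, so these ranks compare means over peaks of different widths. The part of width in the rank of Ccnd1 was not tested.

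The time points differed in the covered share of Ccnd1 by H3K27me3 (adjusted p = 6.42e-05, limma), as they did for 66.3% of the 14918 genes tested. They differed too in log2 fold (adjusted p = 2.96e-14, where 76.0% passed) and in percentile within the list (adjusted p = 8.93e-10, where 74.5% passed). Without the 12 h libraries, when 25.6% of the genes tested passed, the covered share did not pass (adjusted p = 0.815). The log2 fold did pass without them (adjusted p = 0.000119, limma, where 54.2% of 15200 genes passed), as the values of 24 h lay below and those of 32 h above all others. All 3 libraries of 12 h had longer lists and lower median folds, 2.15 to 2.27 against 2.47 to 2.90, so the time point and a difference in these libraries cannot be told apart. Among the 222 protein-coding genes whose median percentile at 16 to 32 h was in the top 0.5%, the median at 12 h was 68.9, and 125 genes were lower at 12 h than Ccnd1, which was at 79.8.

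**Figure D3:**
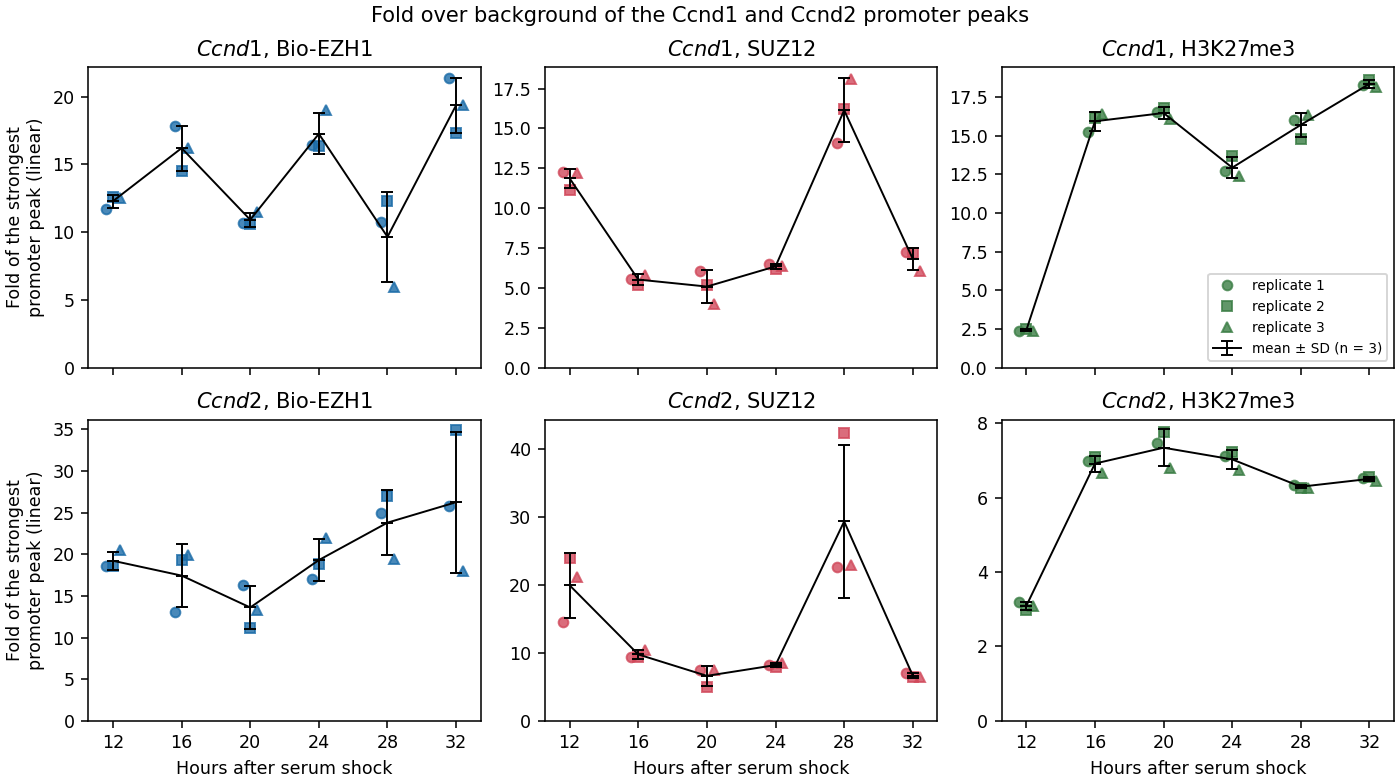
Fold of the strongest peak within 3 kb of the TSS (y axis, linear, from 0) by hours after serum shock (x axis) for Ccnd1 (top) and Ccnd2 (bottom) in Bio-EZH1, SUZ12 and H3K27me3; points are the 3 replicates, and the line joins means with SD. H3K27me3 at Ccnd1 is 2.38 to 2.53 at 12 h and 12.4 to 18.6 later, and the SUZ12 means of both genes are highest at 28 h.

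**Figure D4:**
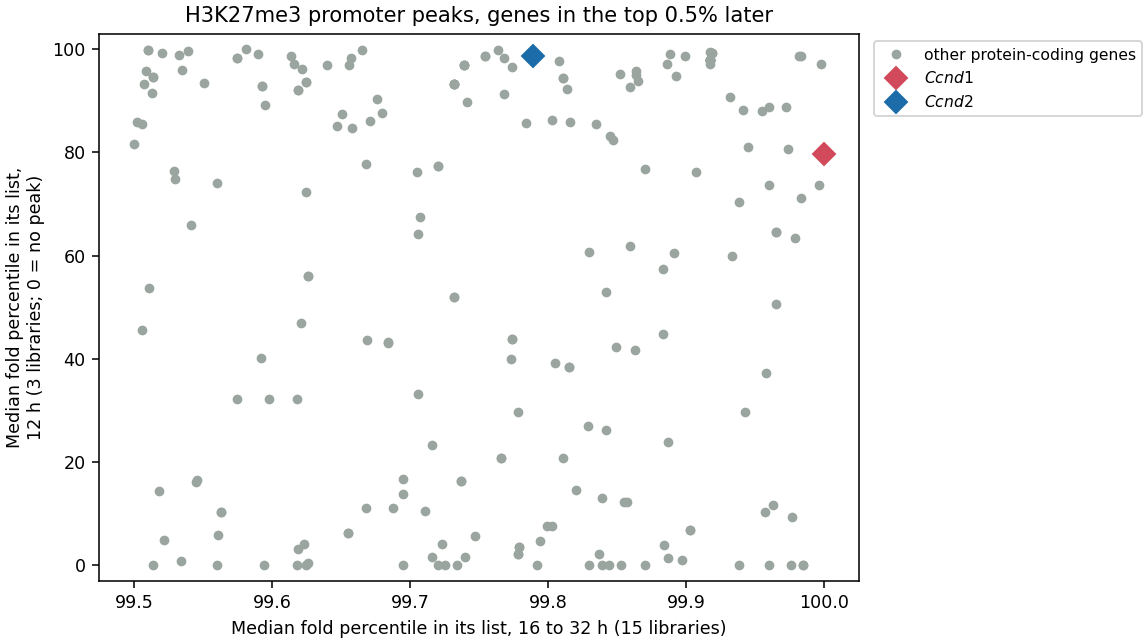
Median percentile of the H3K27me3 promoter peak within its list at 12 h (y axis, 3 libraries; 0 is no peak) against 16 to 32 h (x axis, 15 libraries) for the 222 protein-coding genes in the top 0.5% on the x axis. At 12 h Ccnd1 is at 79.8 and Ccnd2 at 98.6.

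Ccnd2 (ENSMUSG00000000184.12, chromosome 6, 127125162 to 127152193, minus strand) encodes cyclin D2, which also drives proliferation of myoblasts. Its PRC2 peak was more than 2 times as wide as that of Ccnd1 and covered the 6 kb window wholly in each of the 18 Bio-EZH1 and the 18 SUZ12 libraries. In Bio-EZH1 it began at -7887 bp from the TSS (SD 217 bp) and ended 4215 bp downstream (SD 81.2 bp, n = 18), with a median width of 12135 bp, and in SUZ12 the median width was 12881 bp. Further PRC2 peaks, upstream of it and ending at -8635 bp or farther out, were present in every Bio-EZH1 and SUZ12 library. The rest of the gene beyond the end of the promoter peak held none. The TSS of 9330179D12Rik, an antisense gene, is 2804 bp inside Ccnd2, so the window is shared with it.

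Bio-EZH1 folds at Ccnd2 overlapped between most times. They were 18.6, 18.5 and 20.46 at 12 h, 13.1, 19.3 and 19.9 at 16 h, and 16.3, 11.2 and 13.3 at 20 h. They were 17.1, 18.9 and 22.0 at 24 h, 25.0, 26.98 and 19.4 at 28 h, and 25.8, 34.9 and 17.99 at 32 h. The log2 fold passed narrowly (adjusted p = 0.0406, limma) and the percentile in the list did not (adjusted p = 0.177), with all 18 libraries at percentiles of 93.6 to 99.1, and without the 12 and 28 h libraries the log2 fold did not pass (adjusted p = 0.0632, where 54.7% passed). The covered share was 100% in every library, so there was nothing to test.

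SUZ12 at Ccnd2 was high at the same times as at Ccnd1. The folds were 14.6, 24.0 and 21.2 at 12 h, 9.39, 9.45 and 10.5 at 16 h, and 7.45, 4.95 and 7.46 at 20 h. They were 8.24, 7.93 and 8.45 at 24 h, 22.7, 42.4 and 23.0 at 28 h, and 7.06, 6.52 and 6.39 at 32 h. The lowest value of 12 and 28 h was above the highest of the other times, and replicate 2 of 28 h stood far above its partners. The log2 fold differed between times (adjusted p = 3.64e-06, limma; 62.4% of 7735 genes passed) but the percentile did not pass (adjusted p = 0.312), and without the libraries of 12 and 28 h the log2 fold did not pass (adjusted p = 0.0624, where 38.5% passed).

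H3K27me3 at Ccnd2 formed a broad domain that reached upstream of the gene. Its folds were 3.21, 2.99 and 3.09 at 12 h, against 6.27 to 7.77 in the 15 libraries of 16 to 32 h. The domain was 23369 to 27101 bp wide at 12 h and 31709 to 57282 bp later, and it ended 1746 to 1927 bp into the gene at 12 h and 3553 to 3839 bp later. The 12 h libraries were therefore below the others in fold, in width and in reach. As at Ccnd1, the time point and a difference in these libraries cannot be told apart. The covered share differed between time points (adjusted p = 2.52e-07, limma), as for 66.3% of the 14918 genes tested. Its spread between replicates came from the 12 h libraries alone, as the SD was 0 at each later time. In a permutation test of Ccnd2 alone, unadjusted, the covered share gave p = 0.00779. Without the 12 h libraries it was 100% throughout and had no test, while the log2 fold still passed (adjusted p = 0.0133, where 54.2% of genes passed) but did not without those of 12 and 28 h (adjusted p = 0.0942, where 48.2% passed), and the percentile in the list did not pass with or without them (adjusted p = 0.578 and 1). Its percentile was 98.9, 97.0 and 98.6 at 12 h, below the 99.6 to 99.9 of the libraries of 16 to 32 h.

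Side by side in the same libraries, Ccnd2 had the higher fold in 16 of 18 Bio-EZH1 and 15 of 18 SUZ12 libraries, with a median ratio of Ccnd2 over Ccnd1 of 1.28 and 1.30. For H3K27me3 the order turned with time: Ccnd2 was higher in 3 of 3 libraries of 12 h, and Ccnd1 in 15 of 15 libraries of 16 to 32 h, with a median ratio of 0.424. These are counts without a test, and the fold of Ccnd2 in H3K27me3 is a mean over a much wider domain.

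HA-EZH1 peaks in the Ccnd2 window were weak and at narrow sites, with folds of 2.13 to 3.09 for the strongest in a library. Most lay at the 9330179D12Rik TSS or upstream of the Ccnd2 TSS, between -3616 and -1980 bp, and replicate 3 of 12 h held 4 peaks across the window. Peaks were called in replicates 1 and 3 at 12 h, replicate 1 at 16 h, replicate 2 at 28 h and all 3 replicates at 32 h, and in none at 20 and 24 h. The window was covered by 11.5%, 21.6% and 27.2% at 32 h, and Ccnd2 was bound at that time alone. The time points differed in covered share (adjusted p = 0.0436, limma, where 64.8% of 5088 genes passed), but without replicate 1, 2 or 3 adjusted p was 0.125, 0.122 and 0.225. With a window of 1 kb on either side of the TSS Ccnd2 was not bound by HA-EZH1. HA-EZH1 lists differed in length as well, with 9124 to 16365 peaks at 20 and 24 h against 2347 to 5234 at the other times. Among the marker genes, HA-EZH1 bound Neurog1 and Tal1 at 12, 16 and 32 h, Foxa2 at 12 h and Ttn at 20 and 24 h. The part of whole lists in the Ccnd2 values was not tested.

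Ccnd3 (ENSMUSG00000034165.16, chromosome 17, 47505051 to 47599691, plus strand) encodes cyclin D3, the D cyclin known to persist in myotubes. It had no promoter peak of Bio-EZH1, SUZ12 or H3K27me3. The HA-EZH1 peaks of replicates 1 and 3 at 12 h (folds 2.67 and 2.98) lay at the upstream edge of the window, on the TSS of Taf8, a gene for a subunit of the transcription factor TFIID that runs the other way. H3K27me3 peaks lay inside the gene in 15 of 18 libraries, but their places varied between libraries, from 48285 to 81001 bp after the TSS. Their folds of 1.73 to 2.71 put them at a median of the 12.5th percentile of their lists, and they covered at most 9.95% of the gene beyond 3 kb. Such peaks in 15 or more libraries were found in 40.9% of the 2649 protein-coding genes at least as long as Ccnd3. SUZ12 and HA-EZH1 had 1 library each with a peak in the gene body. A later Ccnd3 promoter in the RefSeq table (GRCm38.p6), chr17:47593217-47593516, lies beyond all these H3K27me3 peaks. Within 3 kb of any annotated transcript start of Ccnd3, Bio-EZH1, SUZ12 and H3K27me3 had no peak in any library.

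Cdkn1a (ENSMUSG00000023067.14, chromosome 17, 29090976 to 29100727, plus strand) had no peak within 3 kb of the start of its gene record. It has a later start, 2805 bp downstream, and HA-EZH1 peaks lay just after it. They were called in all 3 replicates at 12 h, with folds of 2.95, 2.43 and 3.28, and in replicates 1 and 2 at 32 h, with folds of 2.30 and 2.16, and in 0 of the 12 libraries of 16 to 28 h. The nearest of them began 3153 bp from the TSS of the record, just outside the 3 kb limit, while the Taf8 peaks at Ccnd3 ended 2594 bp from it, just inside. When the TSS of every transcript was used, Cdkn1a was bound by HA-EZH1 at 12 h, as 6.97% of protein-coding genes were. In that setting its covered share differed between time points (adjusted p = 0.000253, limma, where 59.6% of 5894 genes passed). The part of the unequal HA-EZH1 lists in this difference was not tested. Of the other profiles, 1 Bio-EZH1 library (replicate 1 of 32 h, fold 2.94) had a peak there, and SUZ12 and H3K27me3 had none.

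The stretch common to the 3 HA-EZH1 peaks of 12 h is 544 bp long, at 29094509 to 29095052, between annotated exons of Cdkn1a and 728 bp after the nearest upstream start of a transcript. The TSS of AC167363.2, an unverified transcript on the other strand, is at 29094461. The central 300 bases are shown with both promoters of Cdkn1a in the RefSeq table (GRCm38.p6, the assembly of mm10; plus strand; 250 bases before and 50 after the start), because they show how CpG content changes along this gene. Capitals mark CpG dinucleotides.
Cdkn1a first promoter, chr17:29090729-29091028: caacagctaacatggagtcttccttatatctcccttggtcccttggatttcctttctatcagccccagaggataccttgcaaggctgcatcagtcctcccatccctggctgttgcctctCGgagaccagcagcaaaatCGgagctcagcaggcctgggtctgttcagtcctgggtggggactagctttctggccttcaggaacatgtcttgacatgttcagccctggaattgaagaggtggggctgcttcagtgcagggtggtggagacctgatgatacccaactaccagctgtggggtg
Cdkn1a later promoter, chr17:29093519-29093818: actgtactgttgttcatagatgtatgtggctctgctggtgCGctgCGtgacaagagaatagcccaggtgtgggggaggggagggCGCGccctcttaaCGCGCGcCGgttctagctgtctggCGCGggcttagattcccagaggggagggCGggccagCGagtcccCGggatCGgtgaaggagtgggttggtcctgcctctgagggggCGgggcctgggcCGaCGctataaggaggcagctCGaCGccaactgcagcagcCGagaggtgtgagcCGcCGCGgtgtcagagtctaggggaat
Cdkn1a centre of the HA-EZH1 peaks, chr17:29094631-29094930: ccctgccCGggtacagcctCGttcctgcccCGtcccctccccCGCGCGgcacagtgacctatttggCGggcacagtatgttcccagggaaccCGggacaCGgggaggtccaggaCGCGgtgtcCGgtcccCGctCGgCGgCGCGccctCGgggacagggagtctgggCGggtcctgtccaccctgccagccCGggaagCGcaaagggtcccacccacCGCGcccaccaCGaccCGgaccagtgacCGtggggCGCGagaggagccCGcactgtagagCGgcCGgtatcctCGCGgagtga
These hold 2, 23 and 33 CpG, against a median of 7 over the 32851 promoters of the table.

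**Figure D5:**
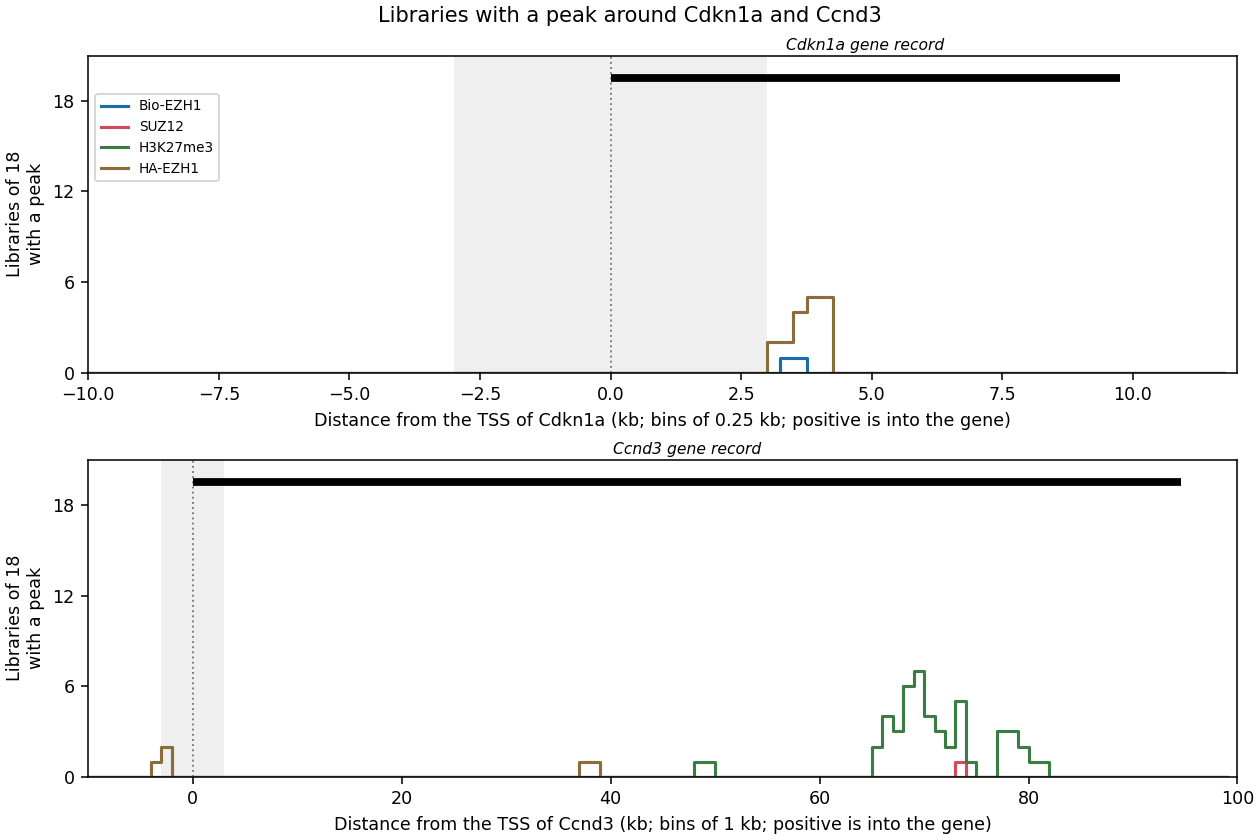
Libraries of 18 with a peak (y axis) by distance from the TSS in kb (x axis; bins of 0.25 kb for Cdkn1a and 1 kb for Ccnd3), 1 line per profile, with the 3 kb on either side of the TSS in grey and the gene record as a black bar. HA-EZH1 reaches 5 of 18 libraries just beyond the grey band of Cdkn1a, and the H3K27me3 peaks of Ccnd3 are scattered, with at most 7 libraries in a bin.

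Cdkn1b, Cdkn2a, Cdkn2b and Cdkn2c had no peak of any profile within 3 kb of the TSS or in the gene in any of the 72 libraries. A promoter without a peak in all 72 was common, at 39.5% of protein-coding genes. Cdkn1b (ENSMUSG00000003031.14, chromosome 6, 134920401 to 134925513) had its nearest peak at 9864 bp and Cdkn2c (ENSMUSG00000028551.14, chromosome 4, 109660876 to 109667189), which encodes p18, at 9355 bp. Around Cdkn2c the nearest peaks upstream were HA-EZH1 peaks at the TSS of Faf1, in replicates 1 and 3 of 32 h.

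Cdkn2a (ENSMUSG00000044303.6, chromosome 4, 89274471 to 89294653, minus strand), which encodes p16 and p19Arf from separate promoters, and Cdkn2b (ENSMUSG00000073802.5, 89306299 to 89311039, minus strand), which encodes p15, lay together in a stretch of 246420 bp with no peak in any list. It ran from 89258926 to 89505345 and held no other protein-coding gene. The nearest peak was 35728 bp from the Cdkn2a TSS and 52114 bp from the Cdkn2b TSS, and 11.7% and 9.20% of protein-coding genes were farther from any peak. There were 796 stretches at least as long, and 8.92% of protein-coding genes started in one. Input reads of this locus were not examined, so a locus without signal and one missing from the genome of the cells cannot be told apart in these lists.

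The promoters of the Cdkn2a and Cdkn2b locus are shown for their CpG content, since many PRC2 targets are rich in CpG. No peak of any list lay on them. The sequences are from the RefSeq table (GRCm38.p6), read 5′ to 3′ on the minus strand, with CpG in capitals.
Cdkn2a p19Arf promoter, chr4:89294570-89294869: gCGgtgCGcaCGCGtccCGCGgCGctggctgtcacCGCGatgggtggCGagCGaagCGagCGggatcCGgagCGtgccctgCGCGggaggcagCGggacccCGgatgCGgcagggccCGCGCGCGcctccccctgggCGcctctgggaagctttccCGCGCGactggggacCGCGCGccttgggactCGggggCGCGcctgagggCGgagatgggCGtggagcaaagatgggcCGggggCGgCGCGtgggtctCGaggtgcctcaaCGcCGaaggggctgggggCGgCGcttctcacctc
Cdkn2a p16 promoter, chr4:89282143-89282442: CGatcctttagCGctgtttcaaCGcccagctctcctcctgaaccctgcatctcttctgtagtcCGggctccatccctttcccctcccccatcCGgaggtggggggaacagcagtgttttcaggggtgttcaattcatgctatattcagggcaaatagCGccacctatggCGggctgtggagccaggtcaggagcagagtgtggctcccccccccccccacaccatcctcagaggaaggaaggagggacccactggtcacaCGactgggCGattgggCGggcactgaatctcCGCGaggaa
Cdkn2b promoter, chr4:89310983-89311282: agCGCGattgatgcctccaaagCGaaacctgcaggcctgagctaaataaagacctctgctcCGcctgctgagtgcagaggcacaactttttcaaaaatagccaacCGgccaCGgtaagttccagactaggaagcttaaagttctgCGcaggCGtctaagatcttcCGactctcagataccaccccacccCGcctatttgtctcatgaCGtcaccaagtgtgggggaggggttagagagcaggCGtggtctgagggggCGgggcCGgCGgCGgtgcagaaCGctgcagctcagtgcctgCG
They hold 45, 12 and 18 CpG, against a median of 7 over all promoters of the table. The E-box CACGTG, which reads the same on both strands and is bound by CLOCK and BMAL1, was in 1 of the 10 promoters that the table holds for 6 of the 8 genes (a Cdkn2c promoter), and in 7.15% of all promoters in it.

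CpG counts around the TSS of Ccnd1 and Ccnd2 lay within the range of the other members. Later starts within a gene were not counted, and a link between CpG content and PRC2 was not tested. In the 1 kb around the TSS, Ccnd1 had 58 CpG and Ccnd2 had 50, against 108 at Cdkn2a, 91 at Cdkn1b, 63 at Cdkn2b, 59 at Cdkn2c, 36 at Ccnd3 and 7 at Cdkn1a. Among all protein-coding genes with a GC content of at least 50% and an observed over expected CpG ratio of at least 0.6, 10.5% had a Bio-EZH1 promoter peak in all 18 libraries, against 4.87% of the rest. Ccnd1, Cdkn1b, Cdkn2a, Cdkn2b and Cdkn2c met both limits. Ccnd2, with a ratio of 0.531, did not, nor did Ccnd3 and Cdkn1a.

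Of 34 other cell cycle genes, 2 were bound by Bio-EZH1, by SUZ12 and by H3K27me3 (5.88%, beside 7.46%, 10.4% and 19.6% of all gene records), and they were Ccna1 and Cdkn1c in each profile. No test was run on these counts. Ccna1 encodes cyclin A1, of the germ line, and had a Bio-EZH1 peak in 18 of 18 libraries with folds of 3.43 to 7.79. Cdkn1c encodes p57, the remaining Cip/Kip inhibitor, and had one in 18 of 18 with folds of 3.82 to 8.08. In SUZ12, Ccna1 and Cdkn1c were each bound at 12 and 28 h alone. In H3K27me3, Ccna1 had a promoter peak in 18 of 18 libraries and was bound at 5 time points, all but 12 h. Cdkn1c had one in 9 of 18, with folds of 1.55 to 2.28, and was bound at 32 h alone. HA-EZH1 bound 2 others of the 34, Rbl2 and Trp53 (5.88%, beside 5.59% of all gene records). Rbl2, which encodes the pocket protein p130, was bound at 12 and 32 h, and Trp53, which encodes p53, at 12 and 28 h. The kinases and the 8 E2F genes of the list were bound in no profile.

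Genes most like Ccnd1 in covered share over the 72 libraries were Pllp (the membrane protein plasmolipin), Foxn4 (a forkhead factor) and Mmp24 (a metalloproteinase), with mean absolute differences of 3.17, 4.34 and 5.04 percentage points. For Ccnd2 they were Hoxb6, Dmrt3 and Gbx2, genes for transcription factors of development, at 2.07, 2.12 and 2.18 percentage points. All 6 of these genes had Bio-EZH1, SUZ12 and H3K27me3 peaks in 18 of 18 libraries, which their selection by covered share made nearly certain.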

How the data were processed

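ChIP-seq peak lists of 72 samples were used, 18 per profile; 6 input samples were not used here. The authors trimmed reads with BBDuk, aligned them to mm10 (and to the Drosophila spike-in genome BDGP6) with BWA 0.7.17, removed duplicates with Picard, kept properly paired reads with mapping quality of at least 30 with SAMtools 1.7, and called peaks per library with MACS2 2.2.4. A later filter is not described in the sources used here. The deposited values are, per peak, a fold over background (a ratio), p-values and q-values as −log10, and an integer score; narrow lists reach q = 0.05 and the broad H3K27me3 lists q = 0.1. The score was not used in any result. HA-EZH1 libraries were sequenced on another instrument model than the rest, per the labels.

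As TSS, the 5′ end of each GENCODE M21 gene record (GRCm38) was taken, and 19 mitochondrial peaks were dropped. For each gene and library, the percent of the window of 3 kb on either side of the TSS covered by deposited peaks was computed. Each profile was fitted alone with limma 3.58.1 (moderated F test over 6 time points, 3 replicates each, no covariates, Benjamini-Hochberg adjustment over all genes tested, threshold 0.05) for genes with a promoter peak in at least 3 of 18 libraries; genes with the same value in all 18 were not tested. The log2 of the strongest fold (1 where no peak) and its percentile were alternatives, as were other windows, thresholds and sets of libraries. The fit was checked on simulated covered shares. On average, replicate numbers did not pair the samples: same-numbered libraries of different times deviated together with a mean correlation of -0.010 to 0.004 per profile. Single pairs in SUZ12 ranged from -0.298 to 0.251, with 6 of 45 over 0.1. P-values measure the spread between these samples only. The genes and lists were chosen with earlier results of these data known. Named genes were the 8 members, bound genes among 34 other cell cycle genes, and, for members with a promoter peak in at least 18 libraries, the 3 protein-coding genes with the smallest mean absolute difference in covered share, more than 10 kb away. Marker genes were a list for checking the cells. Genes that share a window with a member or lie at a peak named beside one (9330179D12Rik, Taf8, Faf1, AC167363.2 and Hes2) fall outside this rule and were named after their values were seen.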

Additional observations from a re-analysis of the deposited data

How the results depend on the processing

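The members bound by Bio-EZH1, SUZ12 and H3K27me3 were Ccnd1 and Ccnd2, 2 in each profile, under every q-value, window, overlap, list size and set of replicates tried. For HA-EZH1 the count of 1 (Ccnd2) became 0 with a 1 kb window, 2 (with Cdkn1a) with the TSS of every transcript or with the gene body, and 1 to 2 (with Ccnd3) on leaving out a replicate number. Of the members tested for the covered share over time, the number called was 0 for Bio-EZH1, where 52.9% of all genes tested passed. The number became 1 with the percentile (Ccnd1, where 49.4% of genes passed) and 2 with the log2 fold (where 57.4% passed). The share of genes passing is given in brackets below. For SUZ12 the number was 1 (59.7%) and became 0 with the percentile (51.9%). It was also 0 without the 12 h libraries (60.3%) and without those of 12 and 28 h (41.6%). It was 2 with the log2 fold (62.4%) or every transcript's TSS (59.0%), and 0 to 1 without a replicate (47.2% to 56.2%). For H3K27me3 it was 2 (66.3%) and became 1 with the percentile (74.5%). It was 0 without the 12 h libraries (25.6%) or those of 12 and 28 h (22.1%), and 2 on leaving out any replicate (47.6% to 50.6%). For HA-EZH1 it was 1 (64.8%) and became 0 without the filter on libraries (28.6%) and 0 without any 1 replicate (52.2% to 60.3%). A 1 kb window left 0 members to test, since each then had the same value in all libraries or a peak in too few.

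Genes called in all numbered 2824, 4546, 9889 and 3298 for Bio-EZH1, SUZ12, H3K27me3 and HA-EZH1. They were 1491 for Bio-EZH1 and 6284 for H3K27me3 with a 1 kb window, 2793 for SUZ12 without the 12 and 28 h libraries, and 3528 and 3008 for H3K27me3 without the 12 h or the 12 and 28 h libraries; leaving out a replicate gave 1216 to 1665, 3590 to 4272, 7066 to 7503 and 2652 to 3064. With the replicate number as a block, Ccnd2 in HA-EZH1 was no longer called (0 members, adjusted p = 0.0597, limma), and no other member's call changed. The fits without the 12 h, or the 12 and 28 h, libraries were chosen after seeing the data. Tested alone and unadjusted in 100000 permutations, the covered share gave p = 0.66 for Ccnd1 in Bio-EZH1, 0.00651 in SUZ12 and 0.0068 in H3K27me3, and for Ccnd2 0.00779 in H3K27me3 and 0.0562 in HA-EZH1. The lists give no depth and no calibrated signal, so a fold can be compared between libraries only as far as the peak caller's background allows.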
